A study of Mus musculus with 6 samples.

Results

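The neutrophil genes and the chemokines that call neutrophils were examined in the lungs of TNF+ and TNF- mice. Members were the rows of the count table with the symbols S100a8, S100a9, Camp, Ngp, Ltf, Ly6g, Cxcr2, Retnlg, Cxcl1 and Cxcl2, which are 10 of 49568 gene symbols, and all 10 were found. The first 8 are made mainly by neutrophils or their precursors, and the last 2 encode ligands of the receptor CXCR2. Bulk RNA-sequencing was done on lung from 3 TNF+ mice (TNF-Tg), which carry a human TNF transgene, and from 3 TNF- mice (WT), their littermates without it. All 6 mice were female and 4 months old, on a C57BL/6 background, with 1 library per mouse. TNF+ mice develop inflammatory-erosive arthritis together with disease of the pulmonary vessels. Human TNF has no row of its own in the mouse table, and the counts of mouse Tnf do not check the transgene.

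Neutrophils mature in the bone marrow and fill their granules in a fixed order. Primary granules come first, with myeloperoxidase and elastase, and secondary granules follow, with lactoferrin, cathelicidin and neutrophilic granule protein. Transcripts of most granule proteins are shut off before the cell enters the blood, whereas S100a8, S100a9, Cxcr2 and Retnlg are still transcribed in the mature cell. CXCL1 and CXCL2, released by macrophages and stromal cells under the control of NF-kB, bind CXCR2 on the neutrophil and draw it out of the vessel, and TNF is a classical inducer of both.

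The members lie on 6 chromosomes (mm10, GENCODE M21). S100a8 (chromosome 3, 90668978 to 90670035) and S100a9 (90692632 to 90695721, minus strand) are 22.6 kb apart. Camp (chromosome 9, 109847379 to 109849617, minus strand), Ngp (110419747 to 110423012) and Ltf (111019271 to 111042767) follow each other at 570 kb and 596 kb. Cxcl1 (chromosome 5, 90891241 to 90893115) and Cxcl2 (90903871 to 90905938) are 10.8 kb apart. Cxcr2 lies on chromosome 1 (74153989 to 74161246), Ly6g on chromosome 15 (75155240 to 75159126) and Retnlg on chromosome 16 (48872621 to 48874496). None of the 10 overlaps another annotated gene. Of the 100-base windows of their transcripts, none occurred at another locus for 9 members, and 3.05% of those of Cxcl2 were shared with Cxcl3.

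Promoters were read from RefSeq (GRCm38.p6), which held all 10 members, as windows of 300 bases from 250 before to 50 after a transcript start. Upstream stretches of 90 bases are shown for the 2 ligands, which were higher in TNF+ lungs, and for 2 of the granule genes, which were lower, so that the opposite groups can be compared. Capitals mark the NF-kB motif GGGANTTTC in Cxcl1 and Cxcl2 and the C/EBP motif TTGCNNAA, on either strand, in Ngp and Ltf. The stretches are chr5:90891126-90891215, chr5:90903780-90903869, chr9:110419657-110419746 and chr9:111019173-111019262, all on the plus strand and read 5′ to 3′.
Cxcl1: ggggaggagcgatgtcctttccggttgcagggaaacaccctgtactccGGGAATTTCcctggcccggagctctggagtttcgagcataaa
Cxcl2: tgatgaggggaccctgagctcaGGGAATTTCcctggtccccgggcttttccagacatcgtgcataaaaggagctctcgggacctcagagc
Ngp: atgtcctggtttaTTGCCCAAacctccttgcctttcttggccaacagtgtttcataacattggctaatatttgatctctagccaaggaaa
Ltf: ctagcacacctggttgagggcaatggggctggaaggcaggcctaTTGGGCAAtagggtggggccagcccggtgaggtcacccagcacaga
In Cxcl1 the NF-kB match began 71 bases before the transcript start and in Cxcl2 97 bases before it. Both matches opened the longest run of bases that the 2 upstream regions had in common, GGGAATTTCCCTGG, of 14 bases.

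Over all members, NF-kB matches were present in the windows of Cxcl1, Cxcl2, S100a9 and Cxcr2, which are 4 of 10, against 1.11% of 32851 promoters. C/EBP matches were found in Ngp, Ltf, S100a9, Ly6g and Retnlg, 5 of 10, against 10.8% of promoters. The PU.1 motif GAGGAAGT was found in S100a8 and Ly6g, against 3.2% of promoters. Both strands were searched, and no 2 matches of different motifs overlapped. A match is a run of letters and was not measured as a bound site. Camp held none of the 3 motifs in this window, and the NF-kB motif lay in genes of both directions.

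**Figure D1:**
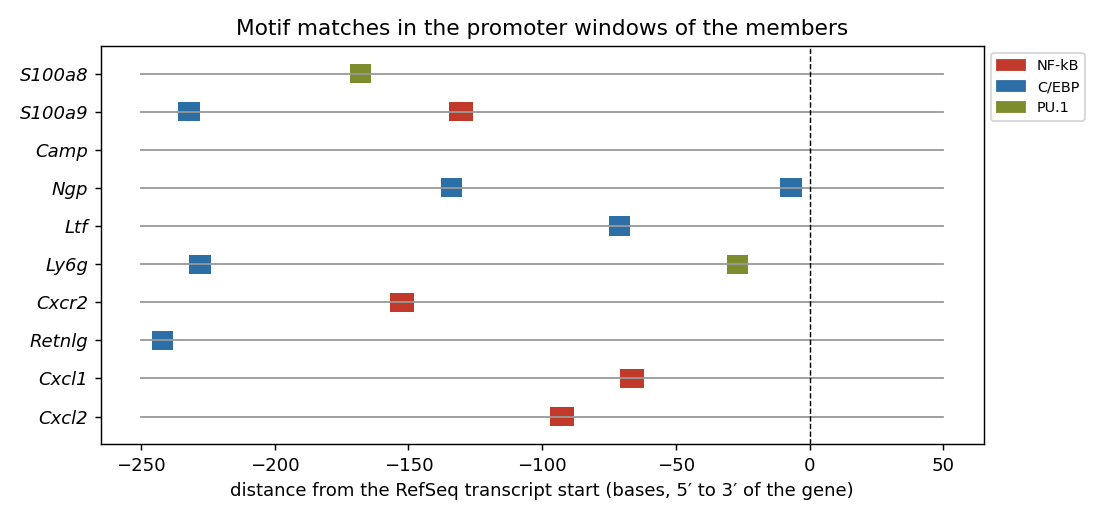
Matches to 3 motifs in the RefSeq promoter window of each member, with 1 line per gene (the first of 2 windows for Ly6g) and the distance from the transcript start in bases on the horizontal axis. The NF-kB matches of Cxcl1 and Cxcl2 lie 71 and 97 bases before the start, and the granule genes Ngp and Ltf hold C/EBP matches.

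The libraries held between 25396923 and 32529408 counts, so that the detection floor of 3 counts lay at 0.0922 to 0.118 CPM (counts scaled to library size), for counting error only. A lung of each genotype stood apart. In TNF+ replicate 1 the gene Gm42418 took 5.22% of all counts, where the other lungs had 0.0774% to 0.274%, and TNF- replicate 1 held 3582 CPM of squamous epithelium markers, against 2.17 to 9.89 CPM. Without both, 9 members passed the test below, the same number as with them. Markers of lung tissue (surfactant protein C, club cell, endothelial, fibroblast and epithelial genes) were present in every lung at a summed 15483 to 38232 CPM, and 5 of 6 were lower in TNF+ lungs.

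The neutrophil genes were low in TNF+ lungs while the ligands were high. All 8 neutrophil members had lower CPM in each TNF+ lung than in any TNF- lung, and both ligands had higher ones. By the quasi-likelihood test of edgeR, with p adjusted after Benjamini-Hochberg over the 19199 genes that passed the filter on low counts, 7 of the 8 neutrophil members were lower and both ligands were higher at an adjusted p under 0.05. In the same test 47.4% of all genes were called, 23.4% lower and 24.0% higher, and 58.7% had groups that did not overlap (28.2% lower and 30.5% higher). Camp, Ngp, Cxcl1 and Cxcl2 did not exceed the filter level of 0.325 CPM in every lung of both groups, and so passed it through the group in which they were high. The same holds for Mpo, Elane, Itgb2l, Cxcr1 and Cxcl3, and for the mast cell and basophil markers and most squamous markers tested, all named further on, so their calls and the counts and medians of their lists are descriptions and give no support. Ratios that use Camp, Ngp, Cxcl1 or Cxcl2, given further on, are descriptions for the same reason. Counts per lung are given below in the order of replicates 1, 2 and 3, means are of normalized counts (counts scaled by edgeR's TMM factors) ± SD with n = 3, and SE marks the standard error of the fitted log2 values. In whole lung, fewer cells of a type and less RNA per cell cannot be told apart.

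**Figure D2:**
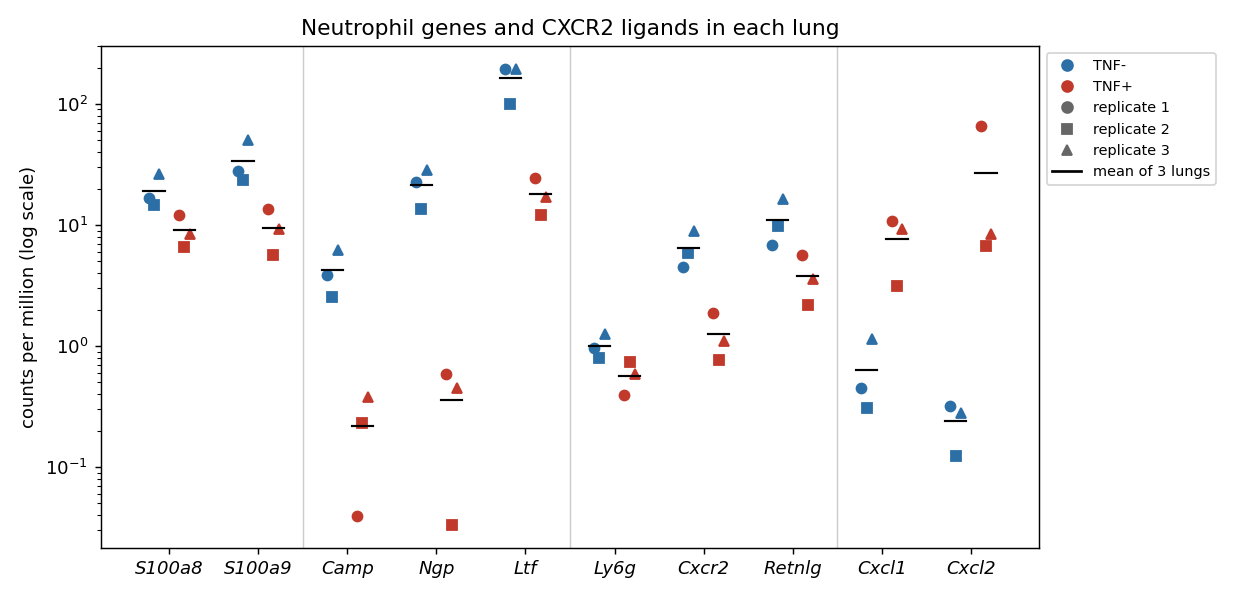
CPM of each member in each lung, on a log axis, with TNF- lungs in blue and TNF+ lungs in red, a symbol for each replicate and a line at the mean of the 3 lungs. For the 8 neutrophil members every red point lies under every blue one, and for Cxcl1 and Cxcl2 every red point lies over every blue one.

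S100a8 and S100a9 encode the subunits of calprotectin, a calcium- and zinc-binding complex that makes up much of the neutrophil cytosol and is released as an alarm signal. S100a8 had 307, 197 and 244 counts in TNF+ lungs and 520, 476 and 859 in TNF- lungs, with no overlap. Its normalized mean fell from 572 ± 167 to 279.6 ± 109 (log2 fold change -1.04 ± 0.29 SE, adjusted p = 0.0203). The call depended on 3 of the 6 lungs, since leaving out TNF+ replicate 2, TNF+ replicate 3 or TNF- replicate 3 gave -0.85 (adjusted p = 0.0728), -0.93 (adjusted p = 0.0716) and -0.78 (adjusted p = 0.0564).

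The other subunit gene, S100a9, had 347, 171 and 268 counts in TNF+ lungs and 878, 759 and 1633 in TNF- lungs. It was lower by a log2 fold change of -1.77 (± 0.38 SE, adjusted p = 0.00569), from 1006 ± 390 to 296 ± 145 normalized counts. The balance of the subunit genes shifted towards S100a8 in every TNF+ lung. S100a8 counts per S100a9 count were 0.885, 1.15 and 0.910 in TNF+ lungs and 0.592, 0.627 and 0.526 in TNF- lungs, without overlap. The log2 ratio differed by 0.75 (exact permutation test, two-sided, p = 0.1, which is the smallest that 3 lungs against 3 allow, and adjusted p = 0.133 over 4 ratios).

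The receptors of calprotectin went in both directions. Tlr4 (0.73 on the log2 scale ± 0.17 SE), its partner Ly96 (1.48 ± 0.21 SE) and the co-receptor Cd14 (2.65 ± 0.26 SE) were higher in TNF+ lungs, with adjusted p of 0.00868, 0.000785 and 0.00013. Ager, which encodes RAGE and in lung is made chiefly by alveolar type 1 cells, was lower (-1.40 ± 0.15 SE, adjusted p = 0.000205). Of 8 other S100 genes, 4 passed the test. S100a4, known from macrophages and fibroblasts, had 502, 629 and 679 counts against 84, 65 and 182 and was higher (2.68 ± 0.32 SE, adjusted p = 0.000326). S100a11, S100a14 and S100a16 were lower, and the median over the 8 was -0.16, beside 0.03 over all tested genes. S100a14 had 635 counts in TNF- replicate 1, the lung with squamous epithelium markers, against 92 and 165 in TNF- replicates 2 and 3. Over the alternatives of test, scaling, filter and left-out lungs, 3 to 4 of the 8 were called.

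The granule genes showed the lowest log2 fold changes of the members. Ngp, which encodes neutrophilic granule protein, had 15, 1 and 13 counts in TNF+ lungs and 711, 441 and 919 in TNF- lungs. Its mean of 11.03 ± 9.43 normalized counts was 58.0-fold lower than the 639.6 ± 200.0 of TNF- lungs (log2 fold change -5.90 ± 0.56 SE, adjusted p = 0.000107). In TNF+ replicate 2 the single count was under the 3 counts taken as detected. Leaving out each lung in turn gave -6.55 (without TNF+ replicate 1) to -5.34 (without TNF+ replicate 2), and Ngp passed the test each time.

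Camp encodes cathelicidin, the precursor of an antimicrobial peptide. It had 1, 7 and 11 counts in TNF+ lungs and 121, 83 and 202 in TNF- lungs, a log2 fold change of -4.20 (± 0.53 SE, adjusted p = 0.000423). The TNF+ lung with 1 count of Camp was replicate 1 and that with 1 count of Ngp was replicate 2, so at these counts the order of the TNF+ lungs differed between the 2 genes. Camp counts per Ngp count were 0.170, 0.188 and 0.220 in TNF- lungs, a narrow range, and 0.0667, 7.0 and 0.846 in TNF+ lungs. The groups overlapped (exact permutation test, two-sided, p = 0.4 for n = 3 against 3). Both genes passed the filter only through TNF- lungs, and the ratios of TNF+ replicates 1 and 2 rest on 1 count, so the test cannot decide whether the ratio differs.

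Ltf, which encodes the iron-binding protein lactoferrin, was the member with the most counts in TNF- lungs. It had 626, 360 and 496 counts in TNF+ lungs and 6136, 3245 and 6334 in TNF- lungs. TNF+ lungs stood 8.77-fold lower in normalized counts (log2 fold change -3.14 ± 0.35 SE, adjusted p = 0.00023). Lactoferrin is also secreted by glands of the airway. Of 5 airway gland and secretory markers, 4 were lower in TNF+ lungs, among them Bpifb1 (-3.29) and Muc5b (-2.90), and Lyz1 was higher (2.35). The summed level of the 5 was 1252 to 1429 CPM in TNF+ and 1168 to 1916 CPM in TNF- lungs, and without Lyz1 the other 4 summed to 198 to 297 CPM and 983 to 1669 CPM. None of the 5 was near 0, and their part in the fall of Ltf was not tested.

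Camp, Ngp and Ltf lie in an interval of 1195 kb, and the genes between them were read for comparison. Of the 24 other tested genes there, 10 were lower, 1 was higher and 13 did not pass the test. Over all tested genes 23.4% were lower and 24.0% higher. The median log2 fold change of the 24 was -0.29, beside 0.03 over all tested genes, and the lowest was Myl3 at -3.67. Whether the interval leans lower as a whole was not tested.

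Of the surface and secreted products of the mature cell, Cxcr2 and Retnlg were lower and Ly6g did not pass the test. Cxcr2, the receptor of the 2 ligands, had 48, 23 and 32 counts in TNF+ lungs and 142, 192 and 292 in TNF- lungs (log2 fold change -2.33 ± 0.40 SE, adjusted p = 0.00195). Retnlg, which encodes resistin-like gamma, a secreted protein, had 143, 65 and 104 counts against 213, 318 and 528 (log2 fold change -1.48 ± 0.42 SE, adjusted p = 0.0197). Like S100a8, it missed the threshold without TNF+ replicate 2 (-1.19, adjusted p = 0.0613), without TNF+ replicate 3 (-1.38, adjusted p = 0.0686) and without TNF- replicate 3 (-1.12, adjusted p = 0.0592).

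Ly6g, the surface antigen by which mouse neutrophils are usually sorted, had 10, 22 and 17 counts in TNF+ lungs and 30, 26 and 41 in TNF- lungs. The groups did not overlap, but the log2 fold change of -0.78 (± 0.32 SE) had an adjusted p of 0.0804. Over the alternatives of test, scaling, filter and left-out lungs its adjusted p was 0.0571 to 0.278. Its mean was 17.3 ± 4.91 normalized counts in TNF+ and 30.01 ± 5.87 in TNF- lungs.

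The size of the fall was compared within a lung for 1 granule and 1 mature-cell member. Ngp counts per Retnlg count were 3.34, 1.39 and 1.74 in TNF- lungs and 0.105, 0.0154 and 0.125 in TNF+ lungs. The log2 ratio differed by -5.10 without overlap, at the smallest p the exact permutation test allows (p = 0.1, two-sided, n = 3 against 3, adjusted p = 0.133). Ngp passed the filter only through TNF- lungs, and the value of TNF+ replicate 2 rests on 1 count of Ngp. The ratio restates the fold changes of the 2 genes (-5.90 and -1.48) and gives no support for a difference between granule and mature-cell genes. Leaving out each lung in turn gave -5.64 to -4.13.

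**Figure D3:**
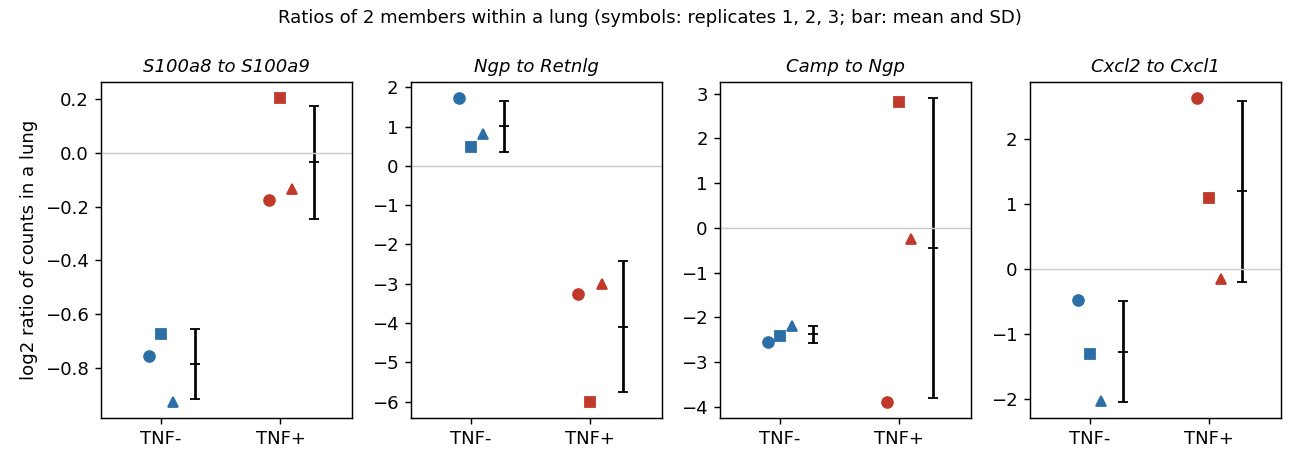
Log2 ratio of the counts of 2 members in the same lung for 4 pairs, each panel with its own vertical axis, with symbols for replicates and a black bar for mean and SD of 3 lungs. The groups do not overlap for S100a8 to S100a9, Ngp to Retnlg and Cxcl2 to Cxcl1, and they do for Camp to Ngp, where 2 of the TNF+ values rest on a single count. In the panel of Ngp to Retnlg the value of TNF+ replicate 2 also rests on a single count of Ngp.

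On a per-length scale (normalized counts per kb of annotated exon) the order of the members changed between the groups. In TNF- lungs the mean was 1927 for S100a9, 1411 for Ltf, 824 for S100a8, 549 for Retnlg and 523 for Ngp, with Camp at 165, Cxcr2 at 63.3 and Ly6g at 31.9. Cxcl1 at 9.93 and Cxcl2 at 3.45 came last. In TNF+ lungs S100a9 led with 567, followed by Cxcl2 at 428 and S100a8 at 403, then Retnlg at 199, Ltf at 161 and Cxcl1 at 127. The place of Cxcl2 rested on TNF+ replicate 1, and without that lung its mean was 106. Ly6g (18.4), Cxcr2 (12.8), Ngp (9.02) and Camp (8.33) were lowest. In TNF- lungs, neighbours in this order from S100a9 down to Ngp overlapped over the lungs, and those from Ngp down to Cxcl2 did not. In TNF+ lungs all neighbours overlapped other than Cxcl1 and Ly6g.

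Both CXCR2 ligands were higher in TNF+ lungs, at very different evenness. Cxcl1 had 272, 94 and 272 counts in TNF+ lungs and 14, 10 and 37 in TNF- lungs. Its mean was 12.8-fold higher, 237.5 ± 132 against 18.6 ± 12.5 normalized counts (log2 fold change 3.65 ± 0.59 SE, adjusted p = 0.00145). Leaving out each lung in turn gave 3.20 to 4.35, with the highest value without TNF- replicate 3, and Cxcl1 passed the test each time.

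Cxcl2 had 1684, 200 and 244 counts in TNF+ lungs and 10, 4 and 9 in TNF- lungs. TNF+ replicate 1, the lung with the many Gm42418 counts, stood 9.64-fold over the next TNF+ lung in normalized counts. The log2 fold change was 6.92 (± 1.19 SE, adjusted p = 0.00204) with that lung and 4.88 (± 0.34 SE, adjusted p = 0.000116) without it. Cxcl2 counts per Cxcl1 count were 6.19, 2.13 and 0.897 in TNF+ lungs and 0.714, 0.4 and 0.243 in TNF- lungs, without overlap (log2 difference 2.47, exact permutation test, two-sided, p = 0.1 with n = 3 against 3, adjusted p = 0.133). Leaving out each lung in turn gave differences of 1.75 to 3.14. Both genes passed the filter only through TNF+ lungs, and the TNF- ratios rest on few counts, so the ratio is a description and gives no support.

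Lungs also differed within a genotype, in an order that many members had in common. TNF+ replicate 1 was the highest of its group in 6 of the 8 neutrophil members and in both ligands, and TNF+ replicate 2 was the lowest in 6 of 8 and in both ligands. Among TNF- lungs, replicate 3 was highest in 7 of the 8, and replicate 2 lowest in 6. Camp and Ly6g went against this order in TNF+ lungs, where replicate 1 was lowest.

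Other genes of the recruitment axis were read from a fixed list of 10, of which 8 passed the filter. Cxcl3, a further CXCR2 ligand that passed the filter only through TNF+ lungs, had 68, 43 and 39 counts against 6, 4 and 7 (log2 fold change 3.39 ± 0.47 SE, adjusted p = 0.000681). Cxcl5, a CXCR2 ligand of epithelial cells, had 29, 22 and 46 counts against 13, 14 and 31 and did not pass the test (0.96 ± 0.41 SE, adjusted p = 0.0889). Other chemokines were lower. Cxcl15, a chemokine of lung epithelium, had 6928, 6794 and 7053 counts against 20577, 26615 and 17408 (-1.41 ± 0.21 SE, adjusted p = 0.000939), and Ppbp, which encodes a platelet precursor of a CXCR2 ligand, had 78, 115 and 115 against 1708, 1277 and 1468 (-3.65 ± 0.15 SE, adjusted p = 3.75e-06).

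The CXC chemokines on the list thus did not share one direction. Ackr1, which carries chemokines across venular endothelium, was higher (3.26 ± 0.27 SE, adjusted p = 4.9e-05). Cxcl12 (1.29) and its receptor Cxcr4 (1.30), which hold neutrophils in marrow and mark aged neutrophils, were higher, as was the interleukin-17 receptor gene Il17ra (0.56). Csf3, the growth factor G-CSF, had 5, 0 and 4 counts against 0, 0 and 1, and Il17a had 1 count in 1 TNF- lung, so neither passed the filter. Without a filter both were tested and neither was called (adjusted p = 0.172 for Csf3 and 0.531 for Il17a). The 8 tested genes had a median of 1.12, with 5 called higher and 2 lower.

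Neutrophil genes outside the members did not follow them as a block. Of 30 such genes on 3 lists, 23 passed the filter on low counts, and 11 were higher, 8 were lower and 4 did not pass the test. Their median log2 fold change was 0.28, beside -2.05 over the 8 neutrophil members and 0.03 over all tested genes.

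Of 7 primary granule and progenitor genes, 4 were tested, and Mpo and Elane among them only through their TNF- counts. Mpo, which encodes myeloperoxidase, had 0, 1 and 4 counts in TNF+ lungs and 109, 65 and 108 in TNF- lungs (adjusted p = 0.000158). Elane, neutrophil elastase, had 1, 0 and 1 against 33, 16 and 32 (adjusted p = 0.00068). Prtn3, which encodes proteinase 3, had 17, 11 and 14 counts against 42, 21 and 51 (-1.19 ± 0.42 SE, adjusted p = 0.0453). Its groups overlapped, and its adjusted p was over 0.05 with DESeq2 (0.0617), limma-voom (0.0601), no low-count filter (0.0508) and the replicate block (0.0503). It was also over 0.05, at 0.111 to 0.138, without TNF+ replicate 2, TNF+ replicate 3, TNF- replicate 1 or TNF- replicate 3, and at 0.0776 without both replicates 1. Gfi1, a transcription factor of granulocyte precursors that lymphoid cells also use, was higher (2.13 ± 0.29 SE, adjusted p = 0.000703). Ctsg, Ms4a3 and Cebpe did not pass the filter, with at most 11 counts in a lung.

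Secondary and tertiary granule genes split. Mmp9, a gelatinase that macrophages also make, had 12059, 18224 and 14428 counts against 470, 503 and 663 (4.99 ± 0.18 SE, adjusted p = 2.72e-06). Lcn2, a siderophore-binding protein that epithelium also makes, had 17065, 23688 and 22643 against 5504, 7670 and 14312 (1.43 ± 0.29 SE, adjusted p = 0.0045). Itgb2l, which passed the filter only through TNF- lungs, had 4, 3 and 3 counts against 17, 16 and 23 (-2.22 ± 0.42 SE, adjusted p = 0.00324), and was not tested at 10 counts or more in every lung. Mmp8 (-0.12), Cd177 (-0.71) and Pglyrp1 (0.28) did not pass the test, and the median of the 6 tested was 0.08. The sign for Cd177 came from TNF- replicate 3 (1834 counts against 316 and 274 in TNF- replicates 1 and 2), without which it was 0.66 (adjusted p = 0.182).

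Of 13 tested mature neutrophil genes, 8 were higher and 4 lower, with a median of 1.03. Clec4e, a receptor for mycobacterial glycolipid that macrophages share, had 4244, 6117 and 4125 counts against 33, 29 and 56 (7.17 ± 0.29 SE, adjusted p = 3.61e-06). Fpr1 (2.53) and Fpr2 (4.10), the receptors of formylated peptides, and Trem1 (1.75) were higher, and all 3 are found on monocytes or macrophages as well. Cxcr1, which passed the filter only through TNF+ lungs, was higher at 2.02 ± 0.60 SE (61, 103 and 49 counts against 16, 5 and 41, adjusted p = 0.0241), opposite to Cxcr2. Csf3r, the G-CSF receptor, was higher at 0.64 ± 0.20 SE (adjusted p = 0.0276), and its groups overlapped.

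Among the lower genes of that list were Hdc (-1.91), the enzyme that makes histamine and is also used by mast cells and basophils, Padi4 (-1.34), the enzyme that citrullinates histones, and Asprv1. The value of Asprv1 (-5.05 ± 1.77 SE) came from 3425 counts in TNF- replicate 1, the lung with squamous epithelium markers, with 28 and 37 in TNF- replicates 2 and 3 and 17, 46 and 31 in TNF+ lungs, and its groups overlapped.

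**Figure D4:**
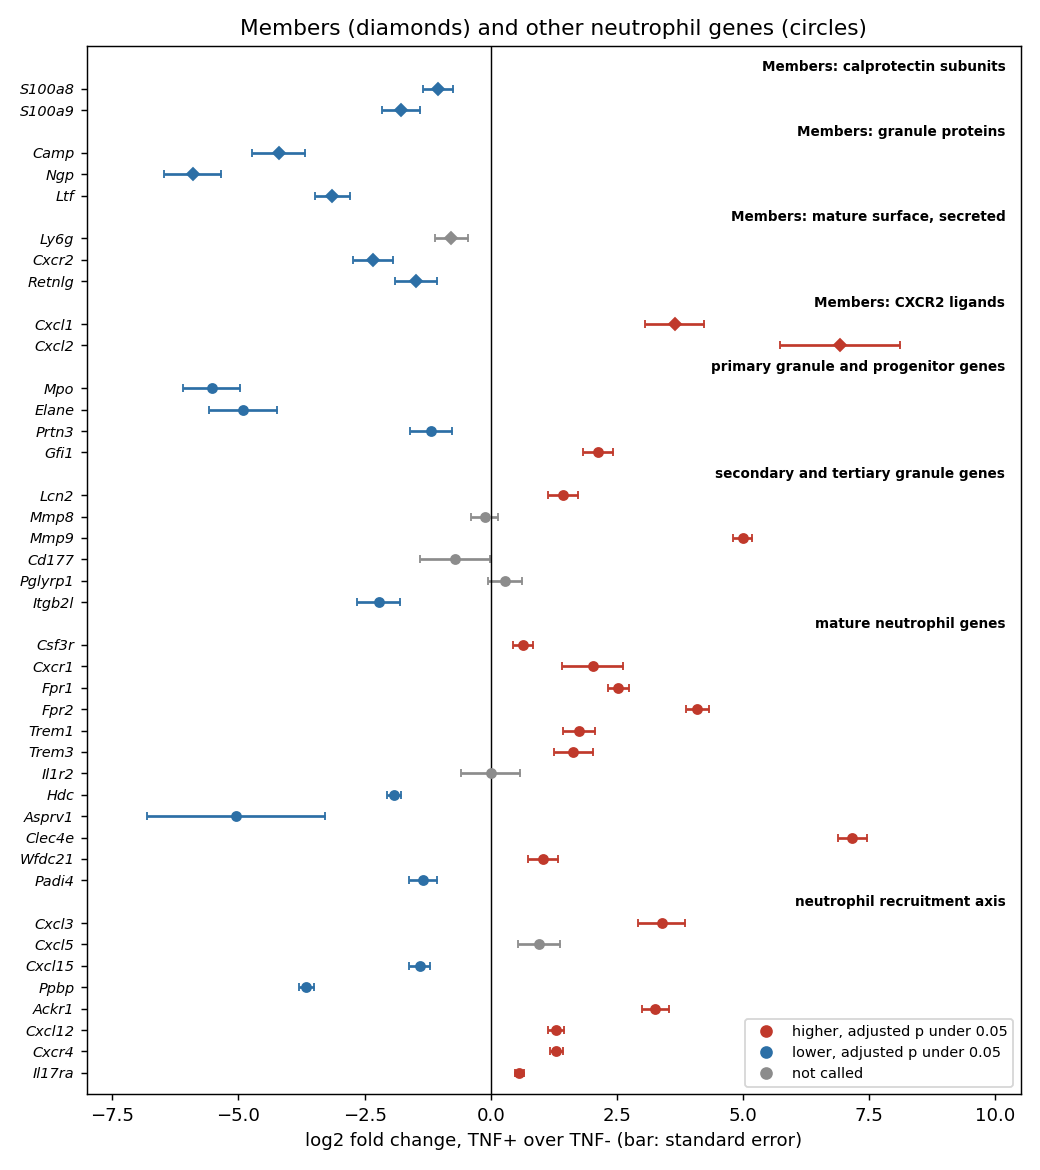
Log2 fold change (TNF+ over TNF-) with its standard error for the 10 members, as diamonds, and for tested genes of 4 further lists, as circles, coloured by the test. The neutrophil members lie left of 0, the 2 ligands lie right of it, and the mature neutrophil genes lie on both sides, from -5.05 for Asprv1 to 7.17 for Clec4e.

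Markers of other cells moved with the genotype as well. Of the 6 macrophage markers, all were higher in TNF+ lungs, with a summed level of 4345 to 5928 CPM against 314 to 367 CPM, and none was at 0. Of 5 monocyte markers, 3 were higher and 1 lower (227 to 278 CPM against 127 to 137 CPM). Of 5 eosinophil markers, 3 could be tested, with Prg2 (4.44) and Il5ra (1.78) higher and Siglecf lower (-1.27). The defining genes Epx and Ccr3 had at most 16 counts in a lung. All 5 summed to 21.1 to 39.7 CPM against 7.48 to 8.95 CPM, and most of the TNF+ sums was Prg2 (23.0, 35.3 and 15.6 CPM). Mast cell and basophil markers were lower in 2 of 3 tested (0.157 to 1.79 CPM against 2.09 to 4.04 CPM). Of 4 lymphocyte markers, Cd79a (1.04) and Cd4 (4.84) were higher (458 to 552 CPM against 79.7 to 152 CPM). Squamous epithelium markers were called lower in 3 of 4 tested, with TNF- replicate 1 or without it, but in 1 with DESeq2, in 1 without TNF+ replicate 2 or without TNF+ replicate 3, and in 0 with limma-voom or robust dispersion. The part of these cells in the values of the members was not tested.

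Red cell genes fell together with the neutrophil members. Of 6 red cell markers (hemoglobin chains, Alas2 and Slc4a1), all were lower in TNF+ lungs, at a summed 7373 to 11921 CPM against 35132 to 59204 CPM, with a median log2 fold change of -1.91. Because neutrophils also circulate in blood, each member was set against the counts of these 6 markers in the same lung, a choice made after the values were seen and given without a test. Per red cell marker count, Camp (-2.64 on the log2 scale) and Ngp (-4.58) remained lower in TNF+ lungs without overlap. Ltf (-1.12) and Cxcr2 (-0.35) overlapped between the groups, as did S100a9 (0.22), Retnlg (0.52) and S100a8 (0.97), and Ly6g was higher without overlap (1.22).

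The ligands stood at 5.72 for Cxcl1 and 8.19 for Cxcl2 on that scale. The division adds 2.06 to the mean log2 difference of every member alike, so these signs restate the sizes of the fold changes and set no member apart from the others. Whether blood in the lung set the level of the neutrophil genes was not tested.

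**Figure D5:**
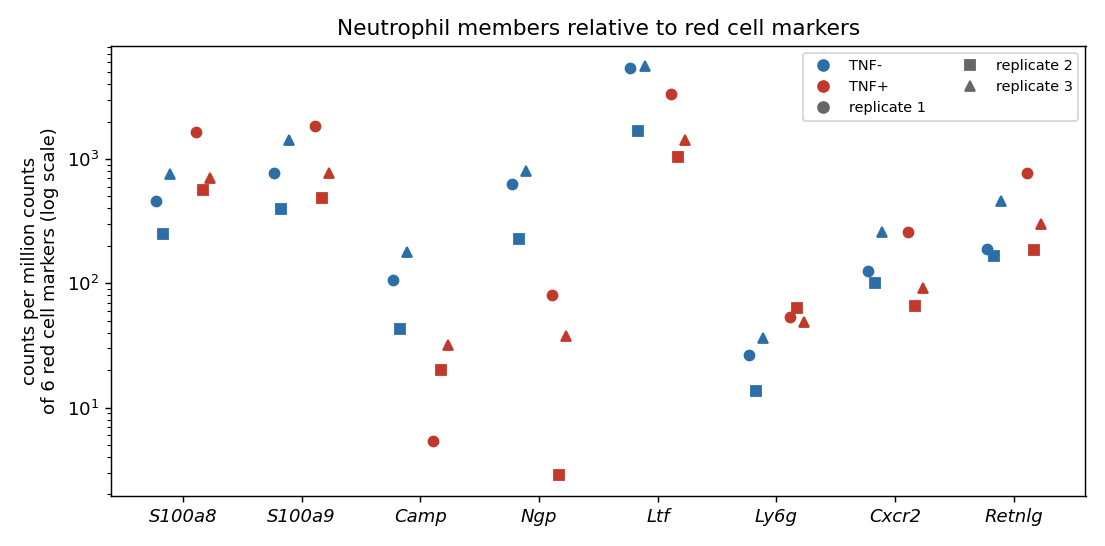
Counts of each neutrophil member scaled to the counts of the 6 red cell markers in the same lung, on a log axis, with TNF- lungs in blue and TNF+ lungs in red. Only Camp and Ngp lie lower in all TNF+ lungs among these 8, and Ly6g lies higher in all of them.

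Genes with the most similar pattern over the 6 lungs were found by the root mean square difference of centred log2 CPM. For S100a8 they were Katnal2 (0.078), Rspo1 (0.094) and 1700001L19Rik (0.10), and for Cxcr2 they were Mdh1b (0.19), Tymp (0.22) and Chst4 (0.22). Nearest to Ngp were Rprml (0.86), Gap43 (0.95) and Gsg1l (0.96), and nearest to Cxcl1 were Gm7233 (0.34), Ighv3-2 (0.40) and Ighv1-83 (0.43). No gene of the neutrophil lists was among these 12. So few of the 19199 tested genes are on those lists that this absence gives no support. Ngp and Cxcl1 passed the filter only through the group in which they were high, and some of their nearest genes had few counts, such as Rprml with 1, 0 and 2 in TNF+ lungs.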

How the data were processed

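RNA of lung from 3 TNF+ and 3 TNF- mice was made into stranded poly(A) libraries and sequenced as single reads. The submitters' processing notes name Trimmomatic (version 0.36), STAR (version 2.5.2b), featureCounts and the build GRCm38.p5. The strand setting of the counting is not given in the sources used here. The authors deposited raw counts, whole numbers of reads per gene symbol without normalization, and all 6 columns were used.

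The quasi-likelihood test of edgeR (version 4.0.16, in R version 4.3.3) compared the genotypes, with no other term, after filterByExpr and TMM scaling. Adjusted p-values followed Benjamini-Hochberg, with 0.05 as the cutoff. Normalized counts are counts over the TMM-scaled total times its mean. DESeq2 (version 1.42.0) and limma-voom (limma version 3.58.1) were alternatives, with other scalings, filters and left-out lungs. Ratios were tested with exact permutation tests (scipy version 1.17.1). The nearest patterns used log2 CPM with a prior count of 2. The fits of edgeR, limma-voom and DESeq2 were tested on simulated counts. Every gene there had the same spread between lungs, so members with few or uneven counts were not covered. The lungs came from different animals, and same-numbered lungs did not deviate together. Replicates of a genotype differed by more than sampling noise (chi-square over degrees of freedom, 53.7 to 140).

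The members, gene lists and tests were chosen with earlier results of these data known. Genes named are the members, the genes of these lists, and the 3 nearest patterns of S100a8, Ngp, Cxcr2 and Cxcl1. Single values of 1 listed gene are not reported here. RefSeq promoters were searched for 3 motifs. Total counts of 25396923 to 32529408 per lung set the precision. The single-cell, histology and flow cytometry data of the study were not used here.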

Additional observations from a re-analysis of the deposited data

How the results depend on the processing

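With the alternatives chosen at the outset, 441 of 458 recomputed values kept their direction and their side of the threshold (or, for counts of genes, stayed within 1.5 times), 11 moved, 6 lost the threshold and none reversed. The 6 were S100a8 and Retnlg when a lung was left out (without TNF+ replicate 2, TNF+ replicate 3 or TNF- replicate 3), with ranges over all left-out lungs of -1.43 to -0.78 and -2.01 to -1.12, while without both replicates 1 they were called at -1.53 and -2.26. The cause was not tested. Of the 10 members, 9 were called with limma-voom, without a low-count filter, with other scalings, with the replicate block and without both replicates 1, and 7 to 9 with a lung left out. With DESeq2 8 were called, as it gave no adjusted p for Cxcl2, and at 10 counts or more in every lung 6 of 7 tested. Cxcl2 ranged from 4.88 to 7.40. Scalings left the median log2 fold change of all genes at 0.00 to 0.04.

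A minimum absolute log2 fold change of 1 left 4320 of the 9096 calls over all genes. The replicate block (replicate number as a term) left 7686 genes, and the same-numbered lungs correlated at -0.149, -0.004 and -0.242, so the numbers do not pair them. At 10 counts or more in every lung, 2 primary granule genes, 0 mast cell markers (none tested) and 1 squamous marker were called. For the 3 squamous calls, DESeq2 gave 1, limma-voom 0, robust dispersion 0, no filter 8 and left-out lungs 1 to 4. Of 6 lung markers, 3 were called without both replicates 1 and 4 to 5 with a lung left out, against 5. Per count of the 6 red cell markers, an alternative added after seeing the data that shifts every member alike by 2.06, the values were 0.97 for S100a8, 0.22 for S100a9, 1.22 for Ly6g and 0.52 for Retnlg, of opposite sign to the tested values, and -2.64 for Camp, -4.58 for Ngp, -1.12 for Ltf, -0.35 for Cxcr2, 5.72 for Cxcl1 and 8.19 for Cxcl2. Depth limits Camp and Ngp in TNF+ lungs and both ligands in TNF- lungs, where counts were few.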
